A study of Homo sapiens with 8 samples.

Results

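The promoters described here are those of the replication-dependent histone genes, chosen as all protein-coding genes of GENCODE release 44 whose symbol is H1-1 to H1-6, or H2AC, H2BC, H3C or H4C followed by a number. The rule took 69 of the 20033 protein-coding genes. Of these, 55 lie on chromosome 6, 13 on chromosome 1 and 1, H4C16, on chromosome 12. By family there were 6 genes for the linker histone H1, 17 for H2A, 18 for H2B, 13 for H3 and 15 for H4. The data were lists of broad H3K4me3 ChIP-seq peaks from clones of U2OS, an established human osteosarcoma cell line. H3K4me3, the trimethylation of lysine 4 of histone H3, marks active promoters. Of the clones, 3 were wild type (WT) and 3 lacked ZBTB48 (KO), a telomere- and promoter-binding zinc finger factor. By the labels all 6 had received interferon gamma (IFNγ) at 250 U/ml during 24 h, while a legend of the study gives a longer treatment for tracks of this mark. No untreated library was among them, and the 2 WT input libraries were not analysed here.

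Replication-dependent histone genes supply the core and linker histones that package newly copied DNA, and most of them are transcribed mainly in S phase. They sit in clusters, many of them as divergent pairs that share the stretch between a pair of 5′ ends. They lack introns, and their mRNAs end in a stem-loop in place of a poly(A) tail, which the stem-loop binding protein SLBP recognises. Many members of a family encode the same or nearly the same protein, so that the sequences of their coding parts are close to each other.

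These features were looked for in the annotation. All 69 members had a single exon, against 5.58% of all protein-coding genes, and their median transcript span was 487 bp. A stem-loop was looked for from 150 bases before the annotated 3′ end to 50 after it. The pattern was 6 perfectly paired bases starting with GG around a loop of 4 starting with TT. Stem-loops with other starting letters were not counted. The pattern was found in 63 of 69 members (91.3%) and in 9 of the 19964 other genes (0.0451%). H2BC21, H3C6, H2BC10, H2AC11, H2AC15 and H4C13 held no match in that window. The 63 matches had 5 distinct sequences, of which the 3 most frequent are shown with the loop in lower case. The first was held by 39 members, the second by 10 and the third by 9.
stem-loop of H1-2 (chr6:26055744-26055759, minus strand): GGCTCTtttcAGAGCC
stem-loop of H4C1 (chr6:26022030-26022045, plus strand): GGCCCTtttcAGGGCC
stem-loop of H1-1 (chr6:26017037-26017052, minus strand): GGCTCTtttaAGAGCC

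Among neighbouring members, 13 pairs were divergent with 5′ ends within 1 kb, and the stretches between their 5′ ends ran from 193 to 978 bp. Of these stretches 4 are shown, on the plus strand of GRCh38, as 1 pair with peaks in all 6 libraries and 1 with none from each of chromosomes 6 and 1. Capitals mark 3 motifs read on both strands, namely ATTTGCAT (the octamer, which POU2F1 binds), the letters TATAAA (typical of the box bound by TBP) and the letters CCAAT (bound by NF-Y).
H2AC7 and H2BC7, peaks in all 6 libraries (chr6:26199294-26199515): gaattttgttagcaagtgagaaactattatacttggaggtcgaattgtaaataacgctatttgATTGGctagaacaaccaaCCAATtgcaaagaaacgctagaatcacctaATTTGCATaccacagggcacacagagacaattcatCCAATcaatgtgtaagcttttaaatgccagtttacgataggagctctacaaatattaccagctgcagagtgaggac
H2BC8 and H2AC8, peaks in none (chr6:26216689-26216920): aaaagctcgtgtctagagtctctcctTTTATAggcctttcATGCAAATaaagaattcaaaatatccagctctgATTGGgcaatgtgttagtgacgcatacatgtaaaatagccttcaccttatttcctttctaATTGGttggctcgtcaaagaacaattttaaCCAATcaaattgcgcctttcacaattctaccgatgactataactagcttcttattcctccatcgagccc
H2BC21 and H2AC20, peaks in all 6 libraries (chr1:149886683-149886917): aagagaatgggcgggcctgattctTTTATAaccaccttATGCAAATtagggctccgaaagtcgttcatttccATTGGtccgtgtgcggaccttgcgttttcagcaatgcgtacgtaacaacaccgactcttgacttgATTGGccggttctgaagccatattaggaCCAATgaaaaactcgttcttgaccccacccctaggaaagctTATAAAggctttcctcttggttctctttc
H2AC25 and H2BC26, peaks in none (chr1:228457874-228458102): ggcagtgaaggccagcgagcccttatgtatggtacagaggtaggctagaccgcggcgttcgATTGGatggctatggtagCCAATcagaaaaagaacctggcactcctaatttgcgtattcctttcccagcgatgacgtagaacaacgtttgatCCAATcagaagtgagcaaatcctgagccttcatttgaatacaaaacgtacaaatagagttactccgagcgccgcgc
Each of the 4 stretches held CCAAT 3 times. The octamer was present in the H2AC7 stretch, in the H2BC8 stretch and in the H2BC21 stretch, and the letters of the octamer were not found in the H2AC25 stretch. Of the 13 pairs, 8 had peaks at both members in all 6 libraries and 3 at neither member in any.

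Over the 250 bases before each 5′ end, the octamer was found in 26 of 69 members (37.7%) against 1.57% of all promoters. All 26 were H2A or H2B genes, 12 of 17 and 14 of 18. The 2 genes of a divergent pair share their matches, except H3C7 and H2BC9, whose stretch of 978 bp exceeds the 250 bases. TATAAA was found in 46 members (66.7%) against 9.34% of all promoters. CCAAT was found in 59 members (85.5%) against 34.3% of all promoters, and it was present at every H1, H2A, H2B and H3 member and at 5 of 15 H4 members. No match of one motif overlapped a match of another.

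Each library was described by its own peak list, with 21712 to 26370 peaks on chromosomes 1 to 22, X and Y. The lists give no read counts, and depth is unknown here. The lists of WT replicates 1 and 2 had a median fold enrichment of 13.4 and 14 and a median width of 2297 and 2353 bp. Those of WT replicate 3 and of the 3 KO libraries lay at 4.19 to 4.65 and at 1275 to 1487 bp. WT replicate 3 therefore resembled the KO lists, and each genotype result is given beside the values of WT replicate 3 against the KO libraries. Of 7 osteosarcoma and mesenchymal markers, COL1A1, SPARC, RUNX2 and VIM had a peak within 1 kb in all 6 libraries, while ALPL, TWIST1 and COL1A2 had none. Of the markers of other cell types, the epithelial EPCAM had a peak in all 6 libraries, and PTPRC, CD3E, ALB, CDH5 and DDX4 had none.

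The first question was which histone promoters carried a peak, counted when any peak reached the window of 1 kb on either side of the 5′ end. The WT libraries called 40, 40 and 38 members and the KO libraries 41, 38 and 38, or 39.3 ± 1.15 (SD, n = 3) against 39.0 ± 1.73 (SD, n = 3). The number of called members thus lay in the same range in both genotypes. Altogether 37 members (53.6%) were called in all 6 libraries and 27 (39.1%) in none, against 65.1% and 30.3% of all promoters. In 5 members the call differed between libraries. A peak list gives presence at the threshold of the caller, so that a member with no peak was not called, which does not show that the mark was absent.

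All families held called and uncalled members. The H2A genes were called in all 6 libraries in 12 of 17 cases, the H4 genes in 8 of 15, the H2B genes in 9 of 18, the H1 genes in 3 of 6 and the H3 genes in 5 of 13. For H1, the called genes were H1-1, H1-2 and H1-4, and the uncalled ones were H1-3, H1-5 and the testis-specific H1-6. The called H3 genes were H3C1, H3C2, H3C4, H3C6 and H3C10.

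**Figure D1:**
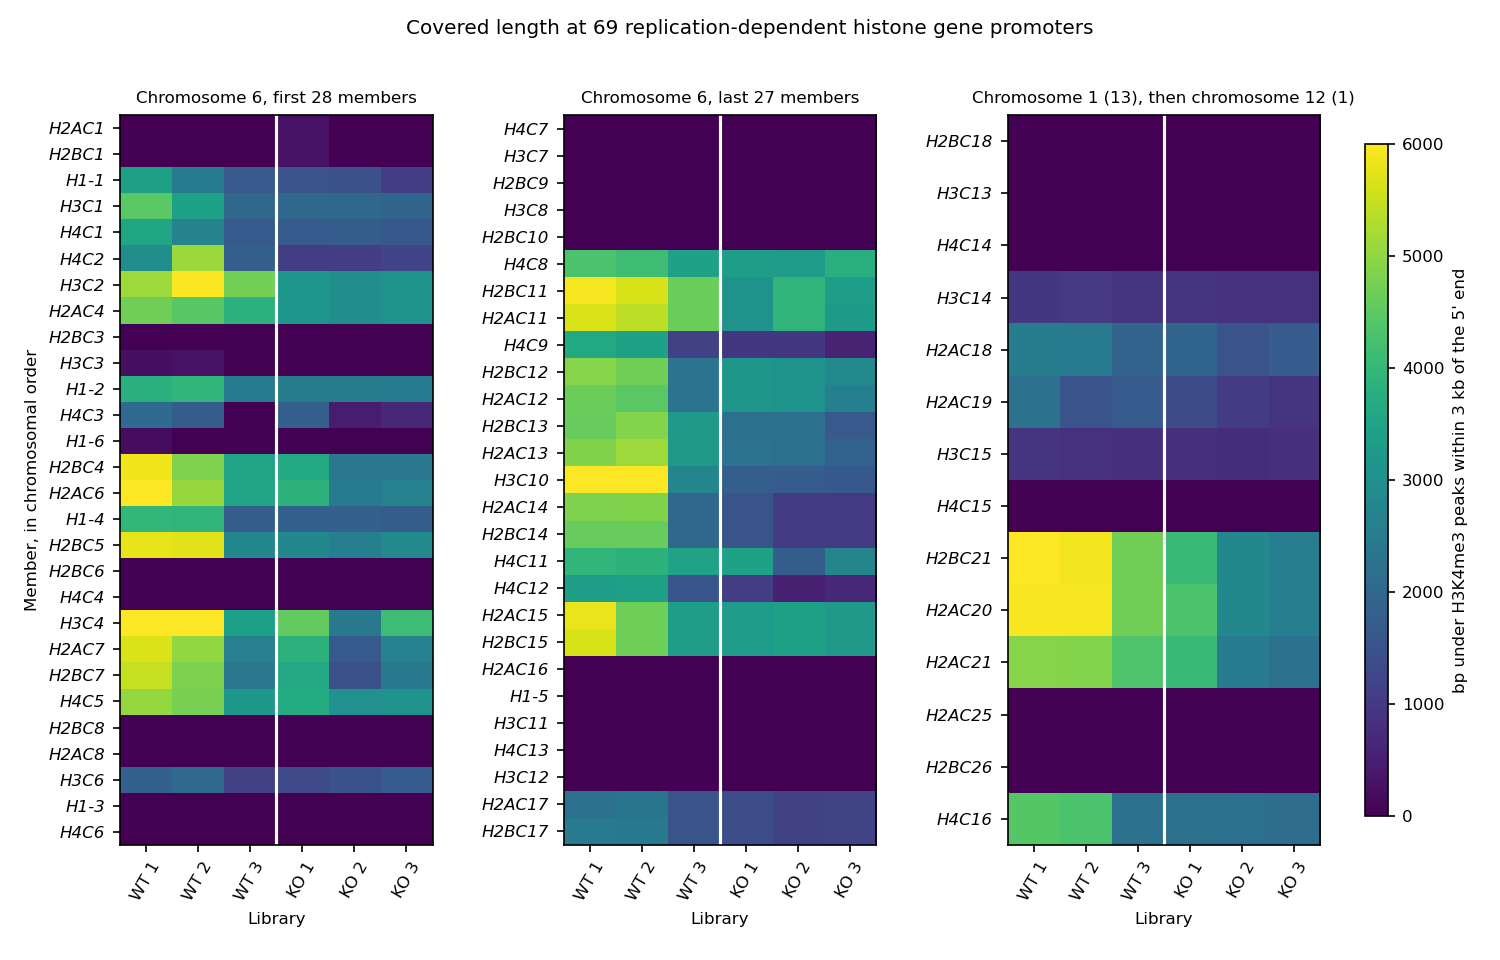
Covered length, the bp under H3K4me3 peaks within 3 kb of the 5′ end, as a colour for each of the 69 members (rows, in chromosomal order) in each of the 6 libraries (columns, WT left of the white line and KO right). Members with 0 bp in every library form blocks, such as the 7 from H1-3 to H2BC10, and WT replicates 1 and 2 have the longest covered lengths at most called members.

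Uncalled members mostly lay next to each other. On chromosome 6 the 19 members called in no library formed 6 runs. The longest run held 7 members, H1-3, H4C6, H4C7, H3C7, H2BC9, H3C8 and H2BC10, whose 5′ ends span 37.9 kb from position 26234987 to 26272931. In no library did a peak come closer than 8661 bp to any of these 7 5′ ends, and the nearest peak to H2BC9 was 26517 bp away. The second run held H2AC16, H1-5, H3C11, H4C13 and H3C12 over 25.5 kb, with the nearest peak at 3037 bp from H3C12 and at 26275 bp from H1-5. The others were the pair H2BC8 and H2AC8, the neighbours H2BC6 and H4C4, the neighbours H2BC3 and H3C3, and H1-6 alone. Of the 19, 17 had no peak within 3 kb in any library. The exceptions were H3C3, with 246 and 292 bp in WT replicates 1 and 2 from a small peak more than 1.5 kb downstream, and H1-6, with 188 bp in WT replicate 1 from the peak of its neighbour H4C3. None of the 19 had a 150-base stretch within 1 kb with an exact copy elsewhere in the genome.

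The other 5 members were called in some libraries and not in others. H4C3 covered 2099, 1761 and 0 bp in the WT libraries and 1835, 455 and 698 bp in the KO libraries. Its values overlapped between genotypes, with means of 1287 ± 1127 bp for WT and 996 ± 737 bp for KO (SD, 3 libraries each), and a two-sided exact permutation over the 20 assignments of the libraries gave p = 0.9. The germline pair H2AC1 and H2BC1, known from testis, were called through 1 peak of 290 bp in KO replicate 1, 962 bp from the 5′ end of H2AC1, and covered 0 bp in the other 5 libraries. With H1-6 called in none, 0 of the 3 germline histone genes were called in all 6 libraries, against 65.1% of all promoters. H2AC17 and H2BC17 owed their coverage to 1 peak downstream of H2BC17 that was present in all 6 lists but reached the 1 kb window in 2 libraries for H2AC17 and in 4 for H2BC17. For H2BC17 the covered length was 2448, 2421 and 1556 bp in the WT libraries and 1420, 1194 and 1220 bp in the KO libraries, and the peak began 438 to 1138 bp from the 5′ end. The call at this pair therefore followed the width of a neighbouring peak.

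Among the 37 members called everywhere, covered length varied several-fold within a window that holds at most 6001 bp. The 6 longest by the mean over the 6 libraries were H2BC11 (4434 bp), H3C4 (4421 bp), H2AC20 (4376 bp), H2BC21 (4339 bp), H2AC11 (4334 bp) and H3C2 (4172 bp). The 6 shortest were H2AC19 (1480 bp), H3C6 (1594 bp), H4C12 (1777 bp), H4C9 (1797 bp), H1-1 (1951 bp) and H2AC18 (2013 bp). H2BC11, an H2B gene that shares its divergent promoter with H2AC11, covered 5918, 5643 and 4658 bp in the WT libraries and 3082, 3931 and 3375 bp in the KO libraries. H4C12 covered 3341, 3411 and 1607 bp in the WT libraries and 1082, 550 and 672 bp in the KO libraries. In both genes every WT library exceeded every KO library. Set beside the 12999 other promoters called in all 6 libraries, the called members were covered over a longer stretch in each library. Their median was 4847, 4708 and 2737 bp in WT and 3082, 2216 and 2428 bp in KO, whereas that of the others was 3358, 3287 and 1999 bp in WT and 1954, 1785 and 1684 bp in KO. The 11 replication-independent histone genes, described below, had medians of 4529, 4338 and 2459 bp in WT and 2302, 2209 and 2172 bp in KO. They too lay above the other promoters in each library, so a longer stretch was not particular to the members. Neighbouring members share peaks, since 26 of the 69 lie within 1 kb of another member's 5′ end, so the members are not independent. The 3 kb window of covered length also takes in peaks of members further off, as at H1-1, which counts a peak of H3C1. The part of such neighbouring peaks in the longer stretches was not tested.

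The genotype comparison asked whether the covered length differed between WT and KO under IFNγ. Per member, every WT library lay above every KO library in 22 of the 46 members with coverage in any library (47.8%), and every KO library above every WT library in 0. Over all promoters with coverage these shares were 50.8% and 0.111%. With all peaks and all 6 libraries the members thus separated about as often as promoters at large. For each of the 22 the two-sided exact permutation gave p = 0.1, the smallest this design allows. Among the 22 were 8 H2A, 5 H2B, 5 H4, 3 H3 genes and 1 H1 gene. Of the 37 members called in all 6 libraries 19 separated, beside 7129 of the 12999 other promoters called in all 6. The rest of the 22 were H3C15, H2AC17 and H2BC17. H3C15 was called in no library, and WT replicate 3 led the highest KO library by 1 bp there. H2AC17 and H2BC17 owed their coverage to the neighbouring peak described above. The median over the 37 called members of the WT mean minus the KO mean was 1708 bp, against 1007 bp for the other promoters called in all 6. The count rested mainly on WT replicate 3, since without it 42 of the 46 members separated, against 90.9% of all promoters. Without KO replicate 1, 27 of 44 members separated, against the higher share of 80.2% of all promoters. The likeness to promoters at large thus depended on that library.

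Within lists of the same kind, WT replicate 3 lay above all 3 KO libraries in 22 of the 44 members with coverage in these 4 lists (50%) and below all 3 in 4 (9.09%), against 54.4% and 2.53% of all promoters. Over the 37 called members WT replicate 3 minus the KO mean had a median of 324 bp, against 165 bp for the other promoters called in all 6. The members with the largest lead were H3C2, H2BC13, H2AC13, H3C10 and, at the same value, H2BC11 and H2AC11. H3C2, an H3 gene with its 5′ end at position 26032099, covered 4755 bp in WT replicate 3 and 3142, 2965 and 3085 bp in the KO libraries, a lead of 1613 bp. WT replicates 1 and 2 covered 5129 and 5959 bp there, so that WT averaged 5281 ± 616 bp against 3064 ± 90.3 bp for KO (SD, 3 libraries each). All 3 WT libraries were above all 3 KO libraries, and the gap to the highest KO library exceeded the spread among the KO libraries. H2BC13 covered 3239 bp in WT replicate 3 against 2197, 2216 and 1673 bp in KO, and H3C10 covered 2737 bp against 1822, 1738 and 1648 bp. The leads at H2BC13, H2AC13, H3C10 and the H2BC11 pair were 1023, 946, 915 and 727 bp. In the other direction stood H2BC12, H4C3, H2AC12 and H3C6, where the lowest KO library exceeded WT replicate 3 by 556, 455, 305 and 192 bp. At H2BC12, WT replicate 3 covered 2296 bp and the KO libraries 3173, 3092 and 2852 bp, while WT replicates 1 and 2 covered 4901 and 4708 bp. The 2 kinds of WT list thus fell on either side of the KO values. Among the members called everywhere, 10 of 37 (27%) had a lead of WT replicate 3 of at least 500 bp, against 4.80% of the other 12999 promoters. These 10 members lie at 5 places when those reached by the same WT replicate 3 peak are joined, namely H4C2 with H3C2 and H2AC4, H2BC13 with H2AC13 and H3C10, H2BC11 with H2AC11, and H4C12 and H2BC21 alone. The other promoters were not joined in this way. The 500 bp were not scaled to covered length, whose median in WT replicate 3 was 2737 bp in the members and 1999 bp in the others. A lead of any size was held by 51.4% of the 37 members and by 55.8% of the others.

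Outside chromosome 6, H4C16 at position 14771131 of chromosome 12 had peaks over its 5′ end in all 6 libraries. It covered 4412, 4299 and 2241 bp in WT and 2207, 2185 and 2134 bp in KO. The groups did not overlap, but WT replicate 3 led the highest KO library by 34 bp. H2BC21, H2AC20 and H2AC21 on chromosome 1 lie within 1.3 kb of each other and shared peaks. H2BC21 covered 6001, 5893 and 4702 bp in WT and 4060, 2804 and 2574 bp in KO, with means of 5532 ± 721 bp and 3146 ± 800 bp (SD, n = 3 each). H2AC21 covered 4901, 4882 and 4357 bp in WT and 4046, 2439 and 2237 bp in KO.

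The peaks of the called members were placed differently around the 5′ end from those of other promoters. Of the members called in a library, the 5′ end itself lay under a peak in 87.5%, 87.5% and 60.5% in the WT libraries and in 58.5%, 34.2% and 23.7% in the KO libraries. Of other called promoters the share was 97.5%, 97.7% and 96.2% in WT and 96.1%, 95.1% and 94.7% in KO. The members lay below the other promoters in each of the 6 libraries, and most of all in KO replicates 2 and 3. Other genes with a single exon stood at 86.3% to 95.9%. Among the 37 members called everywhere, 29 had a 5′ end outside peaks in at least 1 library (78.4%), against 5.74% of all promoters called everywhere. In 8 members, H4C1, H3C2, H2AC4, H4C5, H4C8, H2AC15, H2BC15 and H4C16, the 5′ end lay under a peak in all 6, and in H3C6, H2AC18 and H2AC19 it did in none. The annotated start of the H3C6 gene lies further upstream, at position 26224199, and was under a peak in all 6. At H2AC18 and H2AC19, 87.1% and 87.0% of the 150-base stretches within 1 kb had an exact copy elsewhere in the genome.

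**Figure D2:**
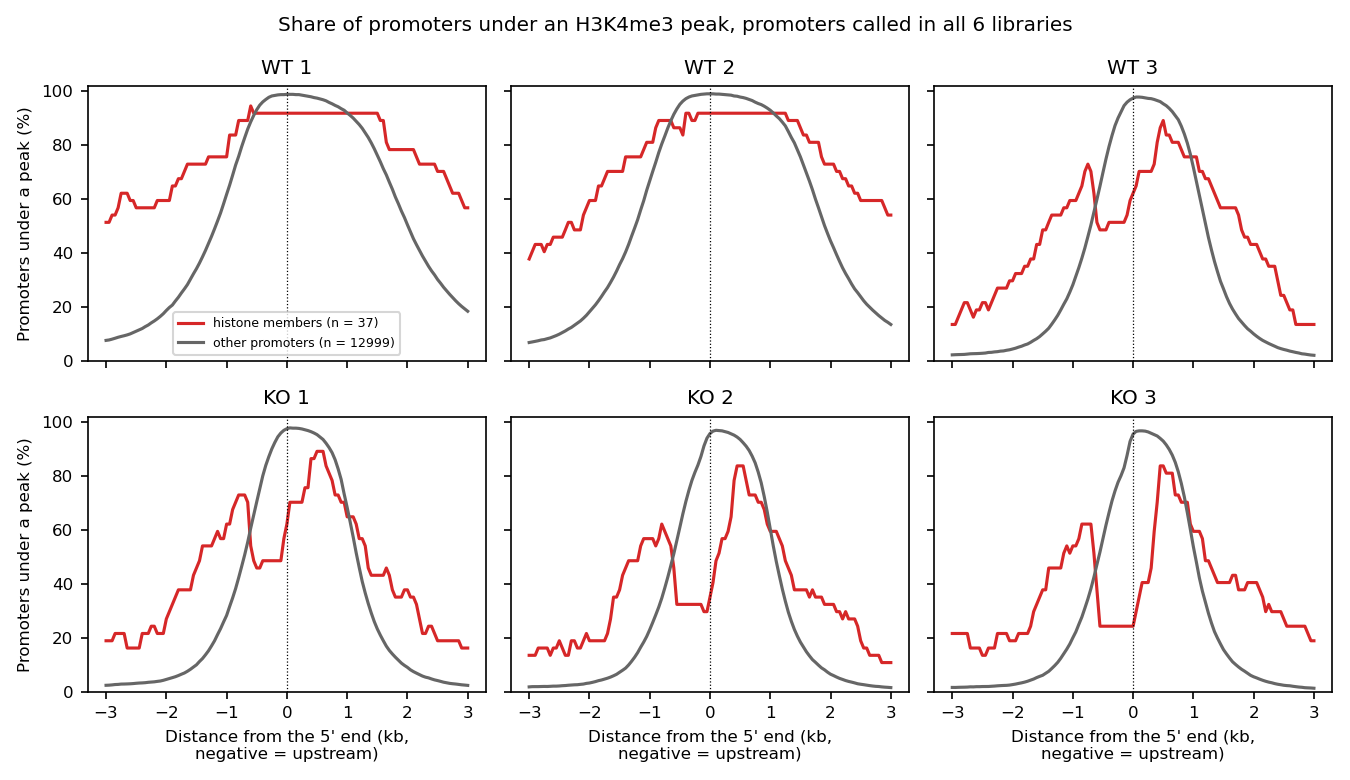
Share of promoters (%) under a peak at each distance from the 5′ end (kb, negative upstream), 1 panel per library, for the 37 members (red) and the 12999 other promoters (grey) called in all 6 libraries. In WT replicate 3 and the KO libraries the members dip just upstream of the 5′ end, to 24.3% at 500 bp upstream in KO replicate 3, and peak near 500 bp downstream, where the other promoters form 1 summit at the 5′ end.

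The profile along the direction of transcription showed a dip. In KO replicate 3, 62.2% of the 37 members were under a peak at 750 bp upstream, 24.3% at 500 bp upstream and at the 5′ end, and 83.8% at 500 bp downstream. In WT replicate 3 the values at the same points were 73.0%, 48.6%, 62.2% and 89.2%. KO replicate 1 resembled WT replicate 3, with 73.0%, 45.9%, 62.2% and 89.2%, and KO replicate 2 gave 59.5%, 32.4%, 35.1% and 83.8%. In WT replicates 1 and 2 the share was 91.9% and 86.5% at 500 bp upstream and 91.9% in both at the 5′ end. The dip was thus seen in lists of the narrower kind in both genotypes, and whether it differed between genotypes cannot be told apart from the difference between single lists. At the other promoters the share was highest within 100 bp of the 5′ end in all 6 lists, at 96.8% to 99.1%. The 37 members include both genes of 8 divergent pairs, with 193 to 250 bp between their 5′ ends. A peak downstream of either gene of such a pair lies upstream of its partner and was counted for both.

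At the divergent pair H2AC7 and H2BC7, whose shared stretch is shown above, the 5′ ends of both lay under a peak in 3 of the 6 libraries. H2AC7 covered 5686, 5034 and 2610 bp in WT and 3850, 1704 and 2651 bp in KO, and the groups overlapped (two-sided exact permutation p = 0.3).

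The members' peaks also differed in rank within their lists. The fold enrichment of a broad peak is the ratio of its ChIP signal over the caller's background, averaged over the peak, and it was ranked within each list, taking for each promoter its strongest peak within 1 kb. The median percentile of the called members was 50.1 and 53.4 in WT replicates 1 and 2, and 3.43, 5.09, 4.72 and 8.80 in WT replicate 3 and KO replicates 1, 2 and 3. For other called promoters the medians were 72.5 and 73.0, and 51.4, 52.5, 54.7 and 57.9. The members ranked lower than the other promoters in each list, and in the 4 lists of the narrower kind they stood close to the bottom. In these 4 lists 28 of 38, 29 of 41, 26 of 38 and 24 of 38 members were below percentile 10, that is 63.2% to 73.7%, against 3.73% to 8.98% of other promoters. In WT replicates 1 and 2 the number was 0 of 40 in both.

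**Figure D3:**
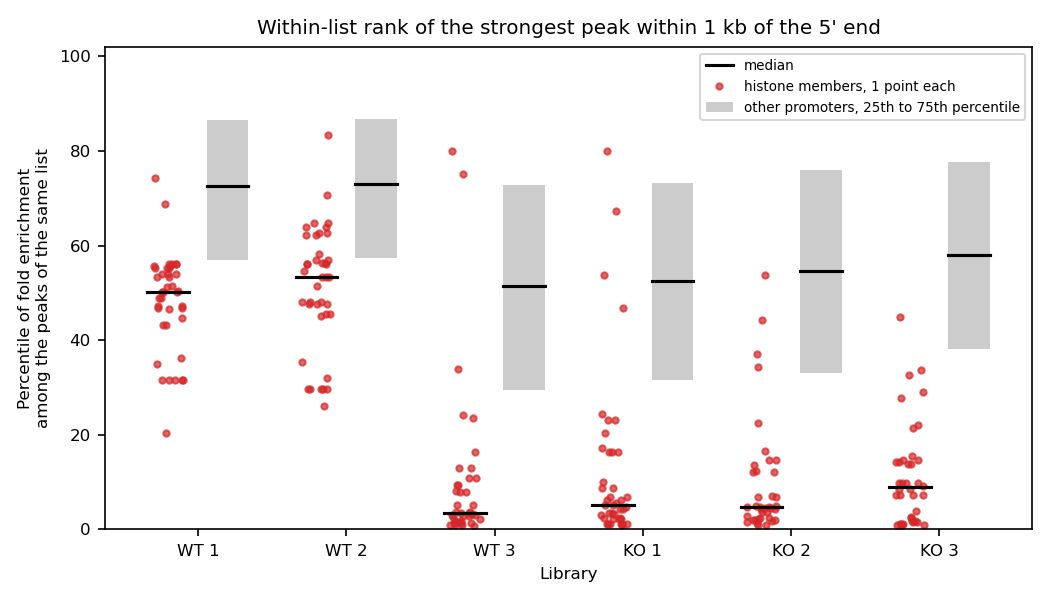
Percentile of fold enrichment within the same peak list (vertical axis) for the strongest peak within 1 kb of the 5′ end in each library (horizontal axis). Red points are the called members, grey bars span the quartiles of other called promoters and black lines are medians. The members' median is 50.1 and 53.4 in WT 1 and WT 2 and 3.43 to 8.80 in the other 4 lists.

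H4C8, an H4 gene whose 5′ end lay under a peak in all 6 libraries, stood at percentiles 68.8 and 70.6 in WT replicates 1 and 2 and at 2.64, 4.63, 2.75 and 2.43 in WT replicate 3 and KO replicates 1 to 3. H3C2 stood at 43.2 and 47.7, then at 2.92, 3.48, 3.64 and 9.68. H4C16 was less far down, at 74.3 and 83.3, then at 24.2, 20.4, 22.5 and 28.9. In the 4 narrower lists a fold enrichment of at least 4 was reached by 2, 4, 4 and 1 called members. These were H3C6, H4C3, H2BC17, H2AC18 and H2AC19, and in 4 of these 5 the peak did not cover the 5′ end in any library. Of other called promoters in the same lists, 58.2% to 78.4% reached that ratio. The 11 replication-independent histone genes, most of which are also expressed outside S phase, had median percentiles of 82.2 and 80.8 in WT replicates 1 and 2 and of 20.8, 18.1, 19.4 and 25.1 in the other 4 lists. Their ranks fell between those of the members and of other promoters in these 4 lists. The labels give the 2 input libraries the replicate numbers 1 and 2 of WT, those of the 2 lists that stand apart. Which list was called against an input is not given in the sources used here, and its part in these ranks was not tested.

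In width, the peaks at the members departed from their lists mainly in WT replicates 1 and 2. WT replicates 1 and 2 had 22 and 21 distinct peaks at the members, with a median width of 5194 and 4668 bp, against 2297 and 2353 bp for the list. WT replicate 3 had 27 and the KO libraries 31, 30 and 31, with medians of 1911, 1665, 1433 and 1664 bp against list medians of 1487, 1388, 1376 and 1275 bp. The list medians are over all peaks of a list, not only over those at promoters. Peaks at other called promoters were not measured for width. In WT replicates 1 and 2, 1 peak of 10307 and 10586 bp spanned the 5 members H2BC13, H2AC13, H3C10, H2AC14 and H2BC14. In the other 4 lists no peak reached more than 3 members. At H3C10, in the middle of that group, the covered length was 6001 bp in both WT replicates 1 and 2.

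The last comparison set the chromosome 6 cluster beside the members of chromosome 1. On chromosome 6 the share of members called was 61.8%, 61.8% and 58.2% in the WT libraries and 63.6%, 58.2% and 58.2% in the KO libraries. On chromosome 1 it was 38.5%, the same 5 of 13 members in each library, namely H2AC18, H2AC19, H2BC21, H2AC20 and H2AC21. The difference was 21.8 ± 2.42 percentage points (SD over 6 libraries) and chromosome 6 was higher in 6 of 6 libraries. The mean covered length per member was 2793, 2672 and 1623 bp in WT and 1582, 1327 and 1363 bp in KO on chromosome 6, and 1805, 1734 and 1470 bp in WT and 1343, 947 and 901 bp in KO on chromosome 1. The difference was 526 ± 355 bp (SD over 6 libraries). The members of chromosome 1 are the 11 of the 1q21 cluster and the 1q42 pair. In the 1q21 cluster alone 45.5% were called in each library, and the difference from chromosome 6 was 14.8 ± 2.42 percentage points, with chromosome 6 again higher in 6 of 6 libraries. Its mean covered length was 2133, 2049 and 1737 bp in WT and 1587, 1120 and 1065 bp in KO. Chromosome 6 was then higher in 4 libraries and lower in 2, WT replicate 3 and KO replicate 1, and the difference of 278 ± 318 bp was smaller than its spread over the libraries. All these differences describe the fixed sets of genes, and no test was run over members.

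The chromosome 1 members differed in how much of their sequence is repeated. The authors removed reads that map to several places, and the part of this step in the calls was not tested. H4C14 and H4C15 are copies whose 2001-bp windows, from 1 kb before to 1 kb after the 5′ end, were identical. The 200 bases before each 5′ end, read in the direction of transcription, are shown because a read from one cannot be told from a read from the other.
H4C14 (chr1:149832457-149832656, plus strand): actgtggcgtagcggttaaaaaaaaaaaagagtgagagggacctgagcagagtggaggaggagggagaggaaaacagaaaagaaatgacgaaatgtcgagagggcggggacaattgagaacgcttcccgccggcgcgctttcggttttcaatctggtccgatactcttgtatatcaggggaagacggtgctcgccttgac
H4C15 (chr1:149861160-149861359, minus strand): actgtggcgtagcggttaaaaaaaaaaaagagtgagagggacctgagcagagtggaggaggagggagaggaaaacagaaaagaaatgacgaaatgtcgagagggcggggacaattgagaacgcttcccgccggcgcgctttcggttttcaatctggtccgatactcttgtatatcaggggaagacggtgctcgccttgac
Of the 150-base stretches within 1 kb of the 5′ end, 100% had an exact copy elsewhere in the genome at H4C14, H4C15, H3C14 and H3C15, and none of these 4 was called in any library. H3C14 and H3C15 still covered 872 to 998 bp and 782 to 901 bp within 3 kb, from peaks over 2 kb away. At H2AC18 and H2AC19, with 87.1% and 87.0% copied, the calls came from a peak that ended 461 to 672 bp upstream of the 5′ end. H2BC18 and H3C13 had 19% and 22.2% copied, H2AC25 and H2BC26 1.62% each, and these 4 were uncalled in all 6 libraries. H2BC21, H2AC20 and H2AC21 had none and were called in all 6.

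**Figure D4:**
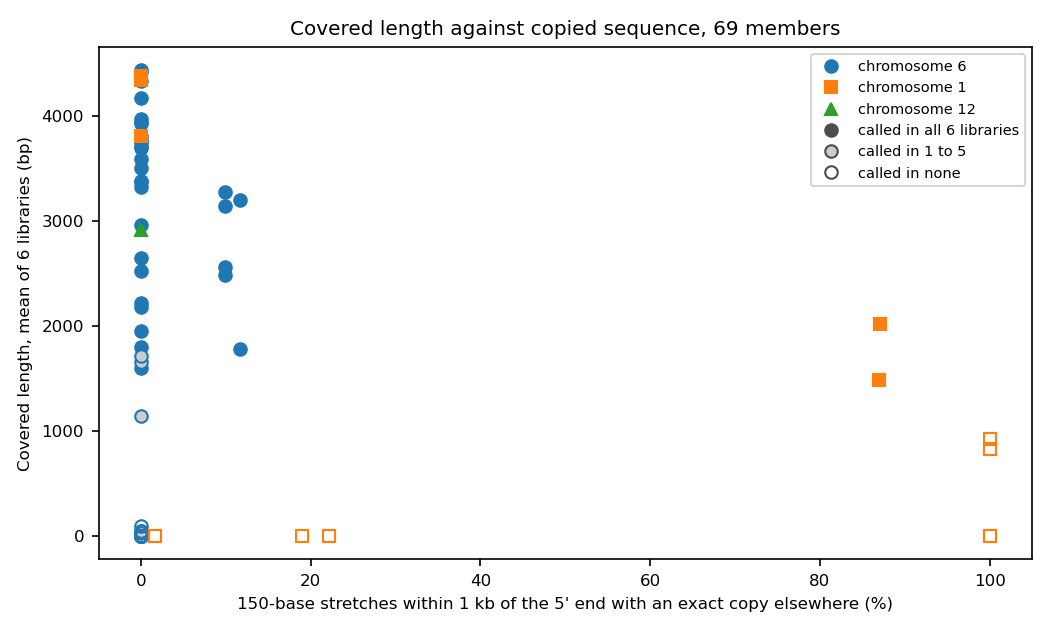
Mean covered length over the 6 libraries (bp) against the share of 150-base stretches within 1 kb of the 5′ end with an exact copy elsewhere in the genome (%), 1 point per member, with filled, grey and open points for members called in all 6, in 1 to 5 and in none. The 4 chromosome 1 members at 100% are open, and the uncalled chromosome 6 members all lie at 0%.

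Among members with no copied 150-base stretch, the order of the chromosomes reversed. All 3 such members of chromosome 1 were called in every library, against 53.1% to 59.2% of the 49 on chromosome 6, and the difference in share was -44.6 percentage points. With those under 50% copied kept, 3 of 7 on chromosome 1 were called (42.9%) and the difference was 17.4 percentage points. The 3 members without a copy are H2BC21, H2AC20 and H2AC21, which share peaks.

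The promoters of genes that act on histone genes gave a background for the same window. All 16 genes of histone gene transcription and 3′ end processing had a peak within 1 kb in all 6 libraries, against 65.1% of all promoters. Among them were NPAT, the coactivator of histone transcription, and SLBP. Every WT library was above every KO library at 7 of the 16 and the reverse held at 0. Over all promoters with coverage these shares were 50.8% and 0.111%. NPAT covered 5213, 4608 and 3125 bp in WT and 2910, 2949 and 2678 bp in KO, and SLBP 4712, 4249 and 2602 bp in WT and 2547, 2544 and 2512 bp in KO. Both genes were above in all WT libraries, by 176 and 55 bp in WT replicate 3 against the highest KO library. All 5 replication-coupled histone chaperone genes (ASF1A, ASF1B, CHAF1A, CHAF1B and NASP) and all 11 replication-independent histone genes were called in all 6 libraries too. Of these, 2 of the 5 and 6 of the 11 separated in the WT direction, beside the same 50.8% of all promoters with coverage. The 11 included H3-3A and H3-3B, which encode the replacement histone H3.3, H2AX, H2AZ1 and CENPA, the centromeric H3 variant.

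The sequence motifs were compared between called and uncalled members as a description. The octamer was present in 14 of the 37 members called in all 6 libraries (37.8%) and in 8 of the 27 called in none (29.6%). TATAAA was present in 28 (75.7%) and 14 (51.9%), and CCAAT in 31 (83.8%) and 23 (85.2%). The stem-loop was found at 33 of 37 and 25 of 27.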

How the data were processed

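The 6 H3K4me3 ChIP-seq libraries of U2OS clones were grouped by the genotype in their labels, with separate clones as replicates. Reads had been trimmed by the authors (Trimmomatic), mapped to GRCh38 (Bowtie2 2.3.5.1), and freed of unmapped, duplicate and multimapping reads before broad peak calling per library (MACS2 2.1.1.2). The deposited score is a display value and was not used. The deposited fold enrichment is a ratio of signal over background, averaged over a peak. Values of −log10 for p and q were deposited too. These were ranked or filtered within a list only.

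The 5′ end was that of the MANE Select or canonical transcript, and positions are 1-based. A call needed an overlap of at least 1 bp between peak and window. Covered length was compared by two-sided exact permutation. Exact 150-base copies were searched on both strands of chromosomes 1 to 22, X and Y. The counting was tested on simulated lists. Python 3.11.15, numpy 2.4.6, pandas 2.3.3, scipy 1.17.1 and matplotlib 3.10.9 were used. Named were members not called everywhere, the 6 longest and 6 shortest, those leading between WT replicate 3 and KO, those outside chromosome 6 and 6 fixed lists. The value of 1 marker gene is not reported here. The members and lists were chosen with earlier results of these data known. Alternatives were other peak thresholds, windows, 5′ ends, libraries and sets of members.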

Additional observations from a re-analysis of the deposited data

How the results depend on the processing

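Of 62 alternatives, 52 kept the direction and stayed within 1.5 times a count or 1 SD over libraries of a difference, 8 moved the result further and 2 reversed it. At a minimum fold enrichment of 4, 0 members were called in all 6 libraries in place of 37, against 36.4% of all promoters. Of the 42 members then covered, 2 separated by genotype in place of 22, against 31.7% of all promoters with coverage. At that minimum the members thus fell below promoters at large in both shares. The differences between chromosomes 6 and 1 were then 4.48 percentage points and 240 bp in place of 21.8 and 526. The 3 kb window gave a difference in share of 9.18 percentage points. Only members without a 150-base copy gave differences of -44.6 percentage points and -2385 bp. Only members under 50% copied, an alternative chosen after seeing the data as were all those for the 5′ end outside peaks, gave 17.4 percentage points and 104 bp, and the 1q21 cluster alone, also chosen after seeing the data, gave 14.8 percentage points and 278 bp. Leaving out each library in turn gave 37 to 38 members called, 22 to 42 separated (42 without WT replicate 3), differences of 21.2 to 22.3 percentage points and of 434 to 601 bp, and 26 to 30 members with the 5′ end outside peaks. With the replicate block, 33 of 46 members were higher in WT in all 3 same-numbered pairs, against 85.6% of all promoters. The clones share only a number: the deviations of same-numbered libraries from their genotype means correlated at -0.00952, 0.0171 and 0.0932 over 14422 promoters. The cause of these changes was not tested. Depth is unknown, 3 against 3 libraries cannot give p under 0.1, and neighbouring members share peaks.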

Other observations

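Ribosomal protein genes, a list chosen after the ranks of the histone members were seen, had a median within-list percentile of fold enrichment of 80.0 and 81.5 in WT replicates 1 and 2 over 83 promoters. In WT replicate 3 and KO replicates 1, 2 and 3 the median percentile was 21, 19.9, 21.8 and 36.4. The H3K4me3 peaks of these genes, which are transcribed at high rates in growing cells, thus ranked above the median of other called promoters in the first 2 lists and below it in the other 4.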
